A study of Mus musculus with 4 samples.

Results

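The 42 genes described here encode DNA repair proteins and the kinases of the DNA damage checkpoint. They were taken as a list of names, chosen with earlier results of these data known. On the arrays they were found as the non-control probes whose RefSeq accession maps to one of the 42 symbols. Probes were found for 41 of them, 54 probes in all, and Rad51c was not analysed here. All 41 were among the 22362 genes and unnamed transcripts that passed the filter on dim probes, 13341 of which had a gene symbol, and all 41 were well above background on all 4 arrays. Where a gene had several probes, its brightest one stands for it.

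The arrays hold RNA of lymphoid-primed multipotent progenitors (LMPP), bone marrow cells of the mouse that still give rise to lymphoid and myeloid blood cells. Both groups came from IRF8-GFP knock-in mice, in which green fluorescent protein reports the transcription factor IRF8, and in both the sort took CD117-positive, Sca-1-positive cells that carried CD34 and CD135 and lacked lineage markers, CD150 and IL-7R. IRF8-GFP positive LMPP (2 arrays) were compared with IRF8-GFP negative LMPP (2 arrays), with exp 1 and exp 2 in each group. The labels give no age or number of mice and do not say that exp 1 and exp 2 were separate animals, so a p-value here reflects the scatter of these arrays alone, which may be technical. With 2 arrays a group an exact permutation test cannot go below p = 0.333, and the adjusted p-values rest on the model fitted across all genes with limma (Benjamini-Hochberg adjustment over all 22362, threshold 0.05, two-sided).

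DNA lesions are repaired by dedicated pathways. Homologous recombination copies a broken end from the sister chromatid and therefore works after replication, whereas end joining ligates broken ends directly at any point of the cell cycle. The Fanconi anemia pathway unhooks crosslinks between the strands and hands the break to recombination, mismatch repair corrects replication errors, base excision repair replaces damaged bases, and nucleotide excision repair removes bulky lesions. The kinases ATM and ATR sense breaks and stalled forks and signal through CHK2 and CHK1. In blood-forming stem and progenitor cells, loss of the Fanconi pathway is known for causing bone marrow failure.

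Irf8 itself separated the groups, with log2 signals of 5.13 and 5.22 in IRF8-GFP positive LMPP and 1.64 and 1.60 in IRF8-GFP negative LMPP (11.7-fold, adjusted p = 0.000802, limma). Here and below a log2 signal is the log2 processed intensity minus the 75th percentile of its array, which was an intensity of 318 and 414 on the positive and 438 and 543 on the negative arrays. The number of spots well above background was 29631 and 30266 on the positive and 33506 and 33681 on the negative arrays, of 59305 each. The gate genes Kit, Ly6a, Cd34 and Flt3 were above background in both groups, and Slamf1 (CD150) was not tested for want of signal. Il7r, whose protein was gated against, was above background in both groups and 2.40 log2 units higher in positive LMPP (adjusted p = 0.000835, limma). All 5 tested gate genes were called different, 3 higher and 2 lower in positive LMPP, with differences from -0.96 to 2.40. Of all genes and unnamed transcripts tested, 38.5% were called higher and 21.4% lower. Under spike-in scaling 1 gate gene was higher and 2 lower. Monocyte and macrophage markers were called higher for 6 of 6 tested (7 listed, Cd14 not tested), with mean log2 signals of 2.27 and 2.34 in positive and -1.14 and -1.16 in negative LMPP. Megakaryocyte and erythroid markers were called lower for 7 of 8 tested (10 listed, with Hbb-b1 among those not tested), with means of -2.30 and -2.42 in positive and -1.49 and -1.40 in negative LMPP. The part of these markers in the results below was not tested, and in a bulk sample fewer cells of a type and less RNA per cell cannot be told apart. All 4 arrays lay on 1 slide with each group in neighbouring positions, so position and group cannot be told apart.

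Most of the repair genes were called higher in IRF8-GFP positive LMPP. Of the 41, 34 were called higher (82.9%), against 38.5% of all genes and unnamed transcripts tested and 44.1% of those with a symbol. The 34 include Rad51d, Fancl, Fance, Ung, Msh6, Chek2 and Xpc, for which no direction is given below. A single member, Xrcc5, was called lower (2.44%), against 21.4% of all tested. The other 6, Fancg, Lig4, Xrcc4, Atm, Chek1 and Xpa, did not pass the threshold. The median difference over the members was 0.52 log2 units, from -0.65 for Xrcc5 to 1.12 for Fancd2, beside a median of 0.16 over all tested, and 37 of the 41 lay above that median. Differences were moderate: 15 members were called higher by at least 1.5-fold (36.6%), against 13.9% of all tested, and 2, Fancd2 and Exo1, by at least 2-fold, a size that 2.33% of all tested reached. The positive arrays both exceeded the negative ones for 38 members, against 52.4% of all tested, and were both below them for 2, Xrcc4 and Xrcc5, against 29.8%. In Xpa alone the groups overlapped. The plot of each member's signal on the 4 arrays shows these gaps beside the distance between arrays of a group.

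**Figure D1:**
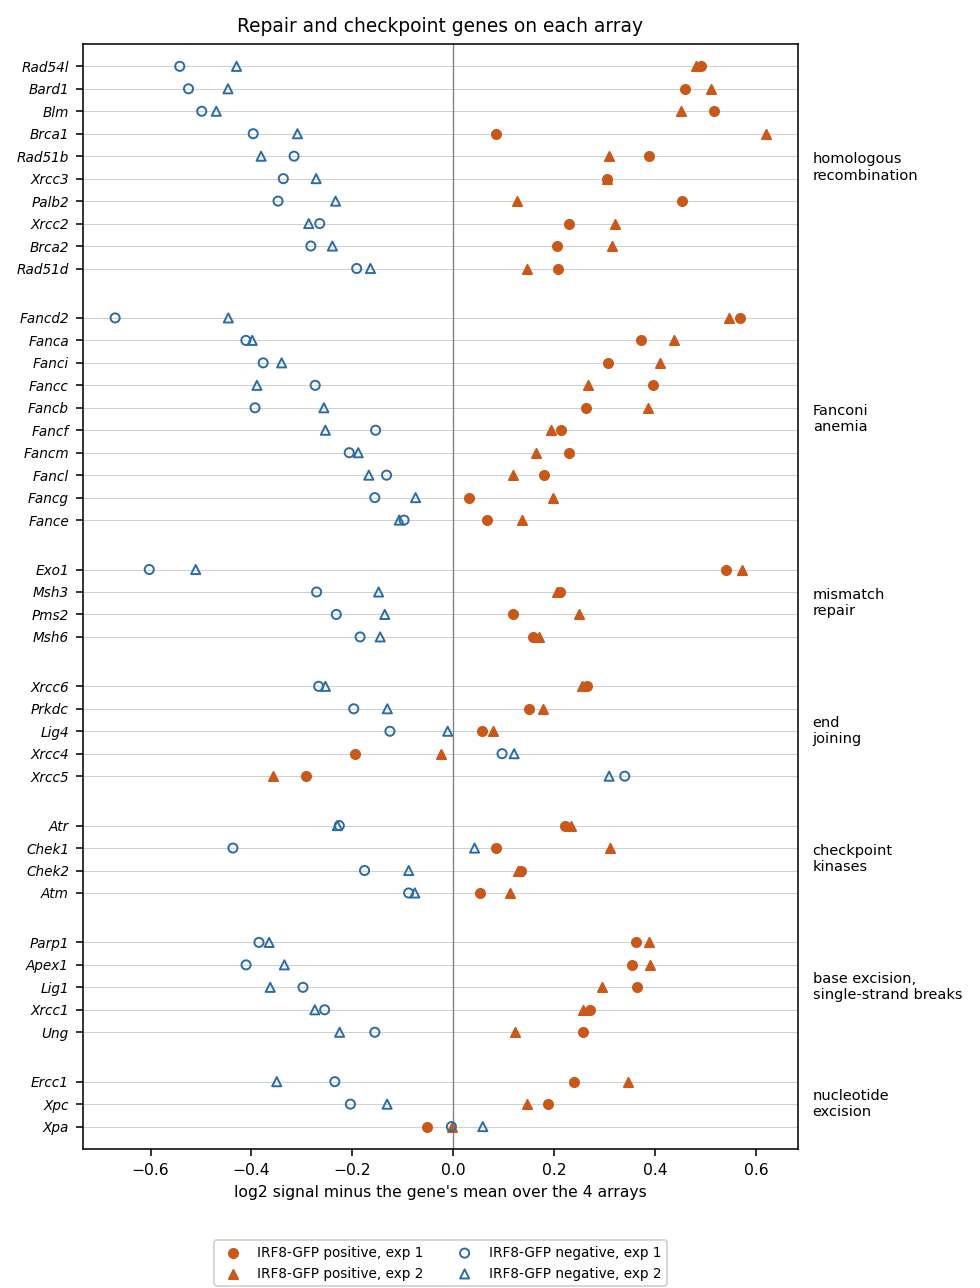
Log2 signal of each of the 41 genes on each array, minus the gene's mean over the 4 arrays, by repair pathway. Filled orange marks are IRF8-GFP positive LMPP and open blue marks IRF8-GFP negative LMPP, circles exp 1 and triangles exp 2; the positive marks are both above the negative ones for 38 genes, below them for Xrcc4 and Xrcc5, and overlap them for Xpa.

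Brightness bears on how these counts read, because bright genes were called higher more often than dim ones. All tested were split by mean signal into 4 bins. Among those with a symbol (2290 to 4254 in a bin), 19% were called higher in the dimmest bin, 27.6% and 47.2% in the next ones, and 67.4% in the brightest. The members lay towards the bright end, with 2, 8, 16 and 15 genes in the bins from dim to bright, of which 1, 5, 14 and 14 were called higher. Part of the count also depends on how the arrays were put on a common scale. Spike-in scaling shifted the median difference of all tested to -0.14 and left 18 members higher and 3 lower, with 18.1% of genes with a symbol higher and 35.7% lower. Cyclic loess, which flattens a trend with brightness, left 22 members higher, against 26.7% of genes with a symbol, and quantile normalization left 25, against 29.4%. Leaving out either negative array (exp 1 or exp 2) left 21 members higher in each case, against 24.2% of genes with a symbol without exp 1 and 26.0% without exp 2. Of the 34 members, 15 stayed higher past the threshold under all 15 alternatives, namely Brca2, Bard1, Rad51b, Xrcc2, Xrcc3, Rad54l, Blm, Fanca, Fancb, Fancd2, Fanci, Exo1, Apex1, Parp1 and Ercc1. Xrcc5 stayed lower under all 15, with differences between -0.96 and -0.62. The plot of calls under each scaling sets the members beside all genes with a symbol.

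**Figure D2:**
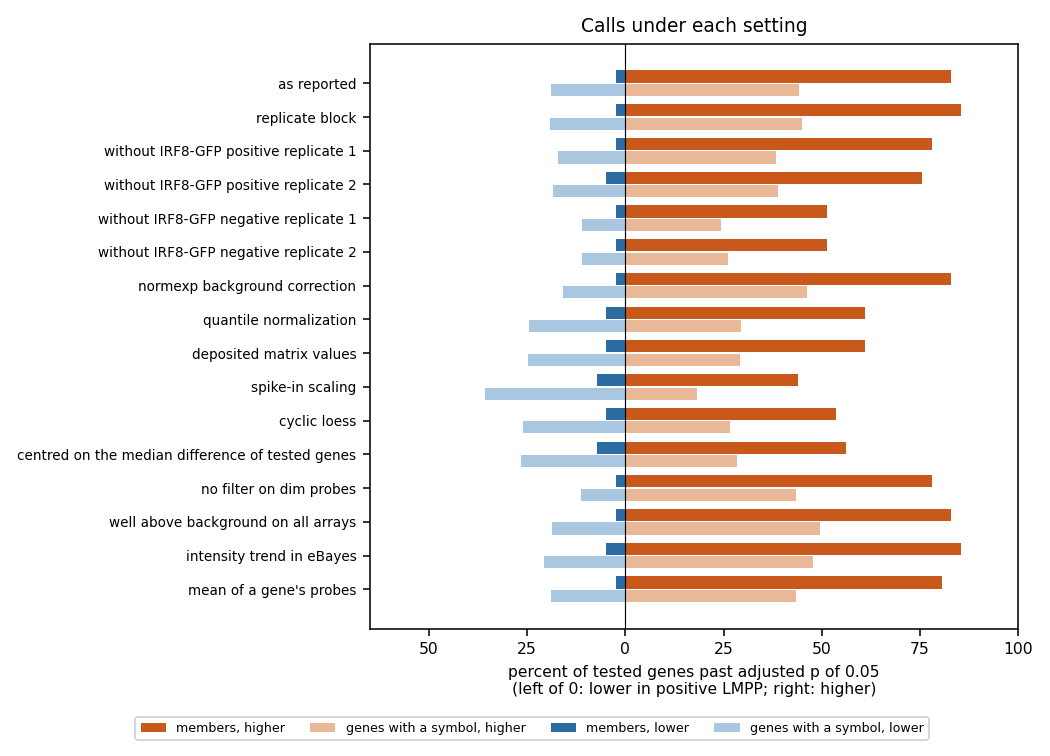
Percent of tested genes called higher and lower in IRF8-GFP positive LMPP under each setting of the processing, for the repair genes (dark) and for all tested genes with a symbol (pale). The share of repair genes called higher is above that of all genes with a symbol in each setting shown, and it is smallest under spike-in scaling, where 18 of 41 were called.

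Homologous recombination genes were called higher for 10 of 10 measured, against 44.1% of genes with a symbol. Rad51d was called by its brighter probe alone. The median difference of the list was 0.65, from 0.36 to 0.97. The largest differences, each about 0.97, belonged to Bard1, the RING-finger partner of BRCA1, to Rad54l, a translocase that helps the broken strand invade the sister duplex, and to Blm, the helicase that dissolves recombination intermediates. Bard1 had log2 signals of 3.12 and 3.17 in positive LMPP and 2.13 and 2.21 in negative LMPP (1.96-fold, SE 0.06, adjusted p = 0.00188, limma), and its 3 probes gave differences of 0.56 to 0.97. Rad54l had 2.11 and 2.10 in positive and 1.08 and 1.19 in negative LMPP (1.96-fold, SE 0.07, adjusted p = 0.00199, limma). Blm had 2.53 and 2.46 in positive and 1.51 and 1.54 in negative LMPP (1.96-fold, SE 0.06, adjusted p = 0.00179, limma). In these 3 genes the arrays of a group lay within about 0.1 of each other and the groups about a whole log2 unit apart. Under spike-in scaling and under centring on the median of tested genes 7 of the 10 were still called higher and none lower. Genes with a symbol were called higher for 18.1% and 28.4% there. Under quantile normalization and cyclic loess 10 of 10 were called higher, against 29.4% and 26.7% of genes with a symbol.

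Brca2, which prepares resected single-stranded DNA for strand exchange, had 3.23 and 3.33 in positive and 2.74 and 2.78 in negative LMPP, a difference of 0.52 (SE 0.07, adjusted p = 0.00554, limma). The groups stood clear of each other and the call held under every alternative. Brca1, the ubiquitin ligase that promotes resection of the break and pairs with BARD1, gave a dim signal of -3.16 and -2.63 in positive and -3.65 and -3.56 in negative LMPP. Its positive arrays lay far apart from each other, and the difference of 0.71 had an SE of 0.20, the largest among the members, and an adjusted p of 0.0402 (limma). Without either negative array that p was up to 0.148, and the call was also lost under spike-in scaling (0.143), centring (0.0851) and no filter on dim probes (0.0774). Palb2, the bridge between BRCA1 and BRCA2, had -0.41 and -0.74 in positive and -1.21 and -1.10 in negative LMPP, a difference of 0.58 with an adjusted p of 0.024 (limma). The p of Palb2 was up to 0.11 without either negative array and up to 0.214 under spike-in scaling and centring. Neither gene overlapped between groups, but their positive arrays were spread far wider than those of Brca2.

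Rad51b, Rad51d, Xrcc2 and Xrcc3 all have a part in strand exchange, and 3 of these 4 had a clear direction. Rad51b had 0.85 and 0.77 in positive and 0.15 and 0.08 in negative LMPP, a difference of 0.70 (adjusted p = 0.00288, limma). Xrcc3 had 1.88 on both positive arrays and 1.24 and 1.30 on the negative ones, a difference of 0.61 (adjusted p = 0.00299, limma), and Xrcc2 rose by 0.55 (adjusted p = 0.00416, limma). These 3 genes did not overlap between groups and were called under every alternative. Rad51d was different, because its probes disagreed. The brighter one had 1.04 and 0.97 in positive and 0.64 and 0.66 in negative LMPP, a difference of 0.36 (SE 0.06, adjusted p = 0.00999, limma). The dimmer one had -0.21 and -0.36 in positive and 0.46 and 0.36 in negative LMPP, a difference of -0.70 (SE 0.09, adjusted p = 0.00565 over all probes, limma). With the mean of both probes the difference of Rad51d was -0.17, so no direction is given for the gene. Without a negative array the p of its brighter probe was up to 0.0692. The plot of all probes of the genes with several shows this disagreement beside the others: 11 genes had several probes, and in 8 of these all probes pointed the same way.

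**Figure D3:**
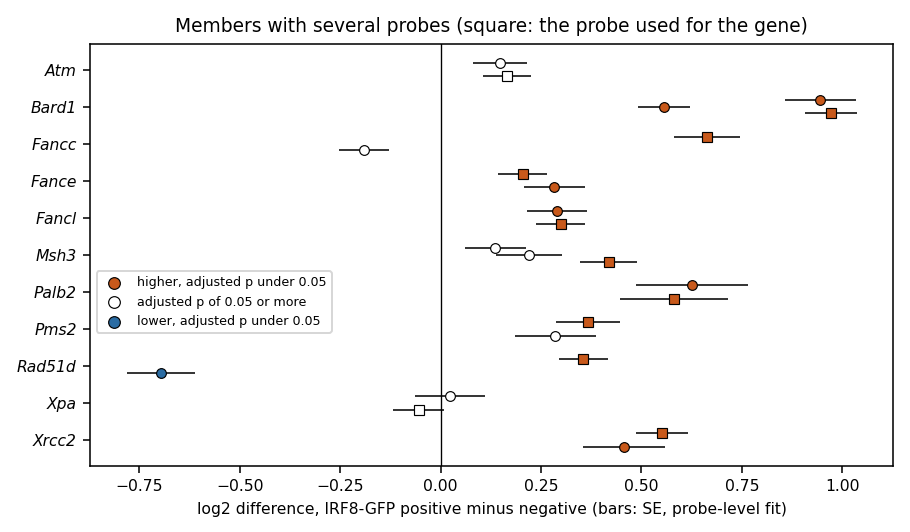
Difference in log2 signal, IRF8-GFP positive minus negative LMPP, of each probe of the genes with more than 1 probe, squares marking the brightest probe, which stands for the gene. The probes of Rad51d lie on opposite sides of 0 (0.36 and -0.70), as do those of Fancc (0.66 and -0.19) and Xpa (-0.06 and 0.02).

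The RefSeq promoters of Bard1 and Brca2 are shown because both hold a match to the letters of an E2F site, the element through which E2F factors drive genes of DNA replication. Letters searched on both strands were TTTCCCGC, TTTCGCGC, TTTGCCGC and TTTGGCGC for E2F and CCAAT for the factor NF-Y, in 250 bases before to 50 after each start. The sequences are the 250 bases before the start, 5′ to 3′ on the strand of the gene, in RefSeq's GRCm38.p6, with E2F and CCAAT letters (either strand) in capitals. Those printed here and below were picked after the matches were seen. Bard1 lies at chr1:71102973-71103222 on the minus strand and Brca2 at chr5:150522371-150522620 on the plus strand.
Bard1: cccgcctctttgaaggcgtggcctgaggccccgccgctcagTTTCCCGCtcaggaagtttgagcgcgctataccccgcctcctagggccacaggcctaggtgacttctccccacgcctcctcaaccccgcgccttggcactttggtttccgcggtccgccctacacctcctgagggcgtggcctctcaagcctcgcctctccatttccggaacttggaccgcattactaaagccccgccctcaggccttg
Brca2: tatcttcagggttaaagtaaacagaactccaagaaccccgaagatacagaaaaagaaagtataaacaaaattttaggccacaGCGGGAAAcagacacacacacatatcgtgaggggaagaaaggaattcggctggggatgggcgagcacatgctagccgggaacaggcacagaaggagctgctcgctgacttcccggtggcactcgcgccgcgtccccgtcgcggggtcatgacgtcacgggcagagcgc
The match of Bard1 begins 209 bases before its start and that of Brca2 168 bases before. Promoters were found for 36 of the 42 members, and 9 of these (25%) held such a match, beside 2.6% of 27025 genes in the table, 4.4% of the tested genes with a promoter, and 42.1% of the S phase genes listed below. The 9 were Brca2, Bard1, Rad51c, Fancg, Msh3, Msh6, Lig1, Xrcc6 and Chek2. Of the measured members, 7 of 28 called higher (25%) and 1 of 7 not called higher (14.3%) held one. CCAAT was found in 21 of 36 (58.3%), beside 41.1% of all genes. The CHR letters TTTGAA or TTCGAA, found in promoters of mitotic genes, were in 4 of 36 (11.1%), beside 21.7% of all genes and 75% of the G2 and M phase genes. The palindromic NRF1 site was in 1 of 36, that of Lig4, beside 1.1% of all genes. A match is a description of the letters and not a bound site.

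Fanconi anemia genes were called higher for 9 of 10, against 44.1% of genes with a symbol, with a median difference of 0.53. Under spike-in scaling 4 of 10 were called higher, against 18.1% of genes with a symbol. The 9 include Fancl and Fance, for which no direction is given below. The list runs from the core complex, which acts as a ubiquitin ligase, to its substrate pair. That pair, Fancd2 and Fanci, which clamps onto DNA once ubiquitylated, was among the most changed. Fancd2 had -0.33 and -0.36 in positive and -1.57 and -1.35 in negative LMPP, a difference of 1.12 (2.17-fold, SE 0.10, adjusted p = 0.00254, limma). Fanci had 2.48 and 2.58 in positive and 1.79 and 1.83 in negative LMPP, a difference of 0.72 (1.64-fold, SE 0.07, adjusted p = 0.00282, limma). In both genes the gap between groups was several times the distance between arrays of a group, and both calls held under every alternative, Fancd2 with differences from 0.81 to 1.23.

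Of the core complex, the scaffold gene Fanca had 3.24 and 3.30 in positive and 2.45 and 2.47 in negative LMPP, a difference of 0.81 (1.75-fold, adjusted p = 0.00211, limma). Fancb, which joins the catalytic subunit in a subcomplex, had 1.26 and 1.39 in positive and 0.61 and 0.74 in negative LMPP, a difference of 0.65 (adjusted p = 0.00555, limma). Fancc had 0.61 and 0.48 in positive and -0.06 and -0.18 in negative LMPP, a difference of 0.66 (adjusted p = 0.00486, limma), but its dimmer probe gave -0.19 (adjusted p = 0.064 over all probes, limma). The groups did not overlap in these 3 genes. The call of Fancc was lost under spike-in scaling (adjusted p = 0.0513, limma). Smaller differences were found for Fancf (0.41), for Fancm (0.39), the translocase that recruits the complex, for Fancl (0.30), its catalytic subunit, and for Fance (0.20), which bridges to the substrate. Fancf and Fancm lost their calls under spike-in scaling (0.10 and 0.09), and Fancf under cyclic loess (0.21). Fancl turned to -0.01 under spike-in scaling, and Fance turned to between -0.15 and -0.10 under quantile normalization, the authors' matrix values, spike-in scaling and cyclic loess, so that no direction is given for these 2. Leaving out an array lost 4 of these calls: Fancf without negative exp 2 (adjusted p = 0.0597), Fancm without either negative array (up to 0.0581), Fancl without positive exp 1 or either negative array (up to 0.0973), and Fance without any one array (up to 0.177, all limma). Fancg, with -1.53 and -1.37 in positive and -1.72 and -1.64 in negative LMPP, did not pass (0.23, adjusted p = 0.0785, limma), passed without positive exp 1 (0.31, adjusted p = 0.0449) and, at 0.35 each, under quantile normalization and the matrix values, and was -0.08 under spike-in scaling.

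**Figure D4:**
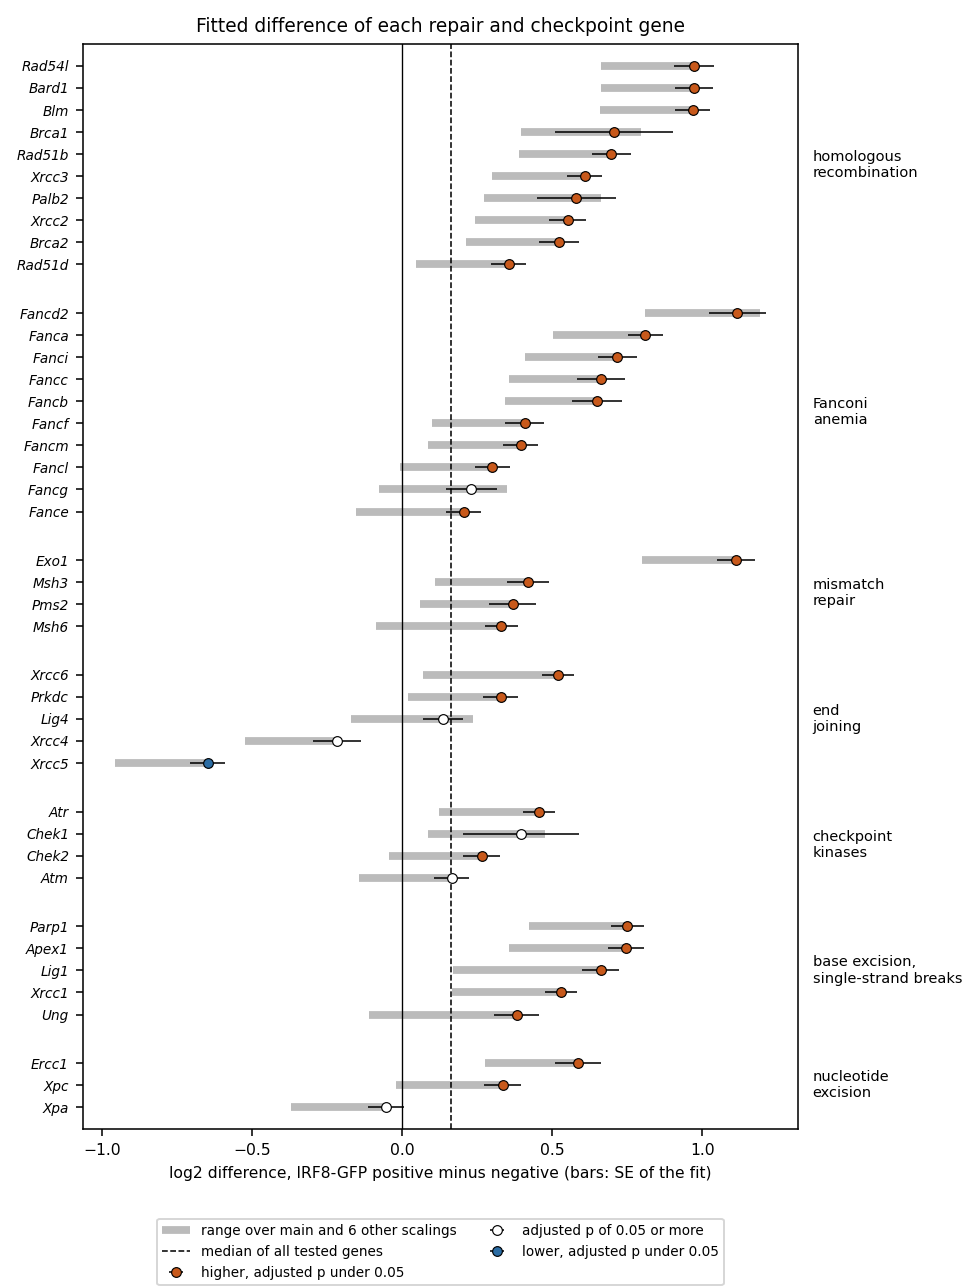
Difference in log2 signal of the 41 repair genes, IRF8-GFP positive minus negative LMPP, with its SE, by pathway and ordered by size. Grey bars give the range over the 75th percentile scaling and 6 other scalings; the bars of Fance, Msh6, Ung and Chek2, among others, reach below 0, while those of Fancd2 and Exo1 stay at 0.80 or above after rounding.

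Mismatch repair genes were called higher for 4 of 4, against 44.1% of genes with a symbol, Msh3 and Pms2 by their brightest probe alone. The median difference of the list was 0.39. Under quantile normalization, spike-in scaling and cyclic loess 1 of the 4 was called higher in each case. The exonuclease Exo1, which removes the stretch with the error and also resects broken ends, stood out. Exo1 had 3.62 and 3.65 in positive and 2.47 and 2.57 in negative LMPP, a difference of 1.11 (2.16-fold, SE 0.06, adjusted p = 0.00171, limma). The arrays of each group lay close together, and the difference of Exo1 was between 0.80 and 1.16 under all alternatives. The recognition subunits changed less. Msh3, which recognises larger loops, had 3.23 and 3.22 in positive and 2.74 and 2.87 in negative LMPP, a difference of 0.42 (adjusted p = 0.00998, limma). Its 3 probes ranged from 0.14 to 0.42, and the dimmer ones did not pass (adjusted p = 0.195 and 0.0861 over all probes, limma). Msh6, which recognises single mispairs, had 5.51 and 5.52 in positive and 5.16 and 5.20 in negative LMPP, a difference of 0.33 (adjusted p = 0.0106, limma). Pms2, a subunit of the endonuclease that nicks the new strand, differed by 0.37 (adjusted p = 0.0195, limma). The dimmer probe of Pms2 gave 0.29 and did not pass (adjusted p = 0.0732 over all probes, limma). Msh3 and Pms2 lost their calls under quantile normalization, the matrix values, spike-in scaling and cyclic loess, where Msh3 was between 0.11 and 0.15 and Pms2 between 0.06 and 0.18. Msh6 turned to -0.09 under quantile normalization and under the matrix values and to -0.07 under cyclic loess. Its direction depends on the scaling, so none is given for it. Leaving out an array lost the call of Msh3 (without negative exp 1, adjusted p = 0.059), of Msh6 (without either negative array, up to 0.0738) and of Pms2 (without positive exp 2 or either negative array, up to 0.101, all limma). The promoter of Msh3, at chr13:92355004-92355253 on the minus strand, is shown because it holds overlapping E2F letters on both strands, beginning 202 and 198 bases before the start.
Msh3: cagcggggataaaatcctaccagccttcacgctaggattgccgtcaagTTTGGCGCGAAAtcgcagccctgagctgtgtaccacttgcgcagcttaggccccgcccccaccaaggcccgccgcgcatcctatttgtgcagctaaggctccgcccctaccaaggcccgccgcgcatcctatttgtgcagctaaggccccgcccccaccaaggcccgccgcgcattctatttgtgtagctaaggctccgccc

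Base excision and single-strand break repair genes were called higher for 5 of 5, with a median of 0.66 and a range of 0.38 to 0.75. All 5 lay in the brightest bin, where 67.4% of genes with a symbol were called higher. Under quantile normalization and cyclic loess 3 of the 5 were called higher, against 29.4% and 26.7% of genes with a symbol. Spike-in scaling left 4, against 18.1%. Apex1, the endonuclease that cuts at abasic sites, had 5.17 and 5.20 in positive and 4.4 and 4.48 in negative LMPP, a difference of 0.75 (1.68-fold, adjusted p = 0.00236, limma). Parp1, which marks nicks and breaks with poly(ADP-ribose), had 3.63 and 3.66 in positive and 2.89 and 2.91 in negative LMPP, a difference of 0.75 (1.68-fold, adjusted p = 0.00214, limma). For both the groups were far apart next to the spread within them, and both calls held under every alternative. Lig1, the ligase that seals Okazaki fragments and repair patches, had 6.25 and 6.18 in positive and 5.59 and 5.53 in negative LMPP, a difference of 0.66 (adjusted p = 0.00298, limma), which was 0.17 at the lowest scaling and not called under quantile normalization or the matrix values. Xrcc1, the scaffold of single-strand break repair, rose by 0.53 (adjusted p = 0.00335, limma) and lost its call under cyclic loess (adjusted p = 0.0641, limma). Ung, which removes uracil from DNA, had 6.27 and 6.14 in positive and 5.86 and 5.79 in negative LMPP, a difference of 0.38 (adjusted p = 0.0163, limma). Ung turned to -0.11 under quantile normalization and the matrix values and to -0.04 under cyclic loess, and its p was up to 0.0932 without either negative array, so no direction is given for it.

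Nucleotide excision repair was represented by 3 genes, which behaved differently from each other. Ercc1, the partner of the nuclease that cuts 5′ of the lesion, had 1.43 and 1.54 in positive and 0.96 and 0.84 in negative LMPP, a difference of 0.58 (1.5-fold, adjusted p = 0.00575, limma) that was called under every alternative. Xpc, which detects distorted DNA across the genome, had 4.08 and 4.03 in positive and 3.68 and 3.76 in negative LMPP, a difference of 0.33 (adjusted p = 0.0131, limma). The difference was -0.02 under cyclic loess, 0.02 under quantile normalization and 0.03 under spike-in scaling, so no direction is given for Xpc. Its call was also lost without either negative array. Xpa, which verifies the lesion, had 3.04 and 3.09 in positive and 3.09 and 3.15 in negative LMPP. Its groups overlapped and the difference of -0.06 did not pass (SE 0.06, adjusted p = 0.468, limma), although under 5 of the 6 other scalings Xpa was called lower, at -0.22 with centring and between -0.33 and -0.37 with the others.

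End joining genes showed no common direction: 2 of 5 were called higher, 1 lower and 2 neither, with a median of 0.14, below the median of all tested. The share called higher is near the 44.1% of genes with a symbol. Xrcc6 and Xrcc5, which encode the subunits of the Ku heterodimer that caps broken ends, moved in opposite ways. Xrcc5 had 1.17 and 1.10 in positive and 1.80 and 1.77 in negative LMPP, and fell by 0.65 (1.57-fold lower, SE 0.06, adjusted p = 0.00281, limma). Xrcc6 had 5.83 and 5.82 in positive and 5.30 and 5.31 in negative LMPP, a difference of 0.52 (1.43-fold, SE 0.05, adjusted p = 0.00343, limma). In both genes the groups were separated by many times the spread within a group, in opposite directions. Xrcc5 rests on 1 probe and was lower under every alternative, whereas Xrcc6 was 0.07 under quantile normalization and the matrix values and 0.12 under cyclic loess, none of them past the threshold. The DNA-dependent kinase Prkdc, which Ku recruits, had 1.33 and 1.36 in positive and 0.98 and 1.05 in negative LMPP. Its difference was 0.33 (adjusted p = 0.0128, limma), and the call was lost without either negative array. The call was also lost under spike-in scaling (difference of 0.02), cyclic loess (difference of 0.19) and centring (difference of 0.16). The ligase gene Lig4 (0.14, adjusted p = 0.15) and its partner Xrcc4 (-0.22, adjusted p = 0.0808, both limma) did not pass. Xrcc4 had -0.14 and 0.03 in positive and 0.15 and 0.17 in negative LMPP, both positive arrays below the negative ones, and was called lower without positive exp 2 (-0.30, adjusted p = 0.038), under spike-in scaling (-0.53), under centring (-0.38) and with an intensity trend (-0.22, adjusted p = 0.0393). Lig4 was -0.17 under spike-in scaling and -0.03 under centring.

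The promoters of both Ku genes are shown because they differ in E2F letters. Whether these letters bear on the differences in signal was not tested. Xrcc6, at chr15:82016119-82016368 on the plus strand, holds E2F letters that begin 46 bases before the start, and its CCAAT letters, on the other strand, lie past the start and outside the printed stretch. Xrcc5, at chr1:72307171-72307420 on the plus strand, holds CCAAT letters on the other strand and none of the E2F letters in this window.
Xrcc5: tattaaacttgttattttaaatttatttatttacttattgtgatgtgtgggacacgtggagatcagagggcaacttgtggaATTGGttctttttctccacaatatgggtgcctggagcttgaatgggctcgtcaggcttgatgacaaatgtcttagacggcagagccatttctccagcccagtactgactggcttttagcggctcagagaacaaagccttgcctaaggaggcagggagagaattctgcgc
Xrcc6: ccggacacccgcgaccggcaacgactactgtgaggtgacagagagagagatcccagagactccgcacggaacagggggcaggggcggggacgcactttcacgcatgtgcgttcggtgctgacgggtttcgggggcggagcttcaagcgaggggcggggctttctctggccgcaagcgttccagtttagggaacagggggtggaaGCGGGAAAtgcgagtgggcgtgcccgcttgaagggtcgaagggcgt

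Of the checkpoint kinases 2 of 4 were called higher, with a median of 0.33. Of genes with a symbol 44.1% were called higher, so this count says nothing particular about the kinases. Under spike-in scaling none of the kinases was called, and their median was 0.02. Atr, which responds to single-stranded DNA at stalled forks, had 3.55 and 3.57 in positive and 3.11 and 3.1 in negative LMPP, a difference of 0.46 (1.37-fold, SE 0.05, adjusted p = 0.00446, limma). Chek2, the effector downstream of ATM, had 0.17 and 0.16 in positive and -0.14 and -0.05 in negative LMPP, a difference of 0.26 (adjusted p = 0.025, limma). The gap was wide for Atr and narrow for Chek2. Atr lost its call under quantile normalization, the matrix values, spike-in scaling and cyclic loess (adjusted p up to 0.118, limma). Chek2 lost its call without any one array and was -0.04 under spike-in scaling, so no direction is given for Chek2. Atm, which responds to double-strand breaks, had 1.24 and 1.30 in positive and 1.10 and 1.11 in negative LMPP, which did not pass (0.16, adjusted p = 0.0699, limma), passed with an intensity trend (0.0277), and was -0.14 under spike-in scaling. Chek1, the effector of ATR, gave a dim signal of -2.96 and -2.73 in positive and -3.48 and -3.00 in negative LMPP. Its negative arrays differed by more than the group means did, and it did not pass (0.39, SE 0.19, adjusted p = 0.149, limma), although with normexp background correction it was called at 0.37 (adjusted p = 0.00341).

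The 108 other tested genes of these pathways, which are not among the 42, were called higher in 77 cases, lower in 7 and neither in 24, with a median of 0.41, where 38.5% of all tested and 44.1% of genes with a symbol were called higher. The count was 49 without negative exp 1 and 52 without negative exp 2, and spike-in scaling gave 38 higher and 17 lower (median 0.11). These lists were chosen with results of these data known and are described by their counts. Of 26 further recombination genes 22 were called higher and none lower (median 0.69), among them Gen1, a nuclease that resolves Holliday junctions (1.35, adjusted p = 0.00166), the helicase Recql4 (2-fold, adjusted p = 0.00164) and Rad51ap1, which promotes strand pairing (0.98, adjusted p = 0.00185, all limma). Under spike-in scaling 15 of the 26 were higher and 1 lower. Of 26 further genes of checkpoint and damage signalling 23 were higher and none lower (median 0.53), led by the histone variant gene H2afx, now H2ax, whose phosphorylated product marks breaks (1.15, 2.22-fold, adjusted p = 0.00149), the ATR mediator Clspn (1.99-fold, adjusted p = 0.00274) and the phosphatase Cdc25c (0.91, adjusted p = 0.00189, all limma). Of these 26, 13 were higher under spike-in scaling.

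For the lists that follow, 44.1% of genes with a symbol were called higher and 19% lower. Under spike-in scaling these shares were 18.1% and 35.7%. Of 11 further Fanconi genes 7 were higher and none lower (median 0.38), with 3 higher and 3 lower under spike-in scaling. Faap24, a DNA-binding partner of FANCM, rose by 0.85, Apitd1, now Cenps, by 0.81, and Usp1, which removes ubiquitin from the FANCD2 and FANCI pair, by 0.76 (adjusted p = 0.00281 at most, limma). Of 17 further base excision genes 9 were higher, 3 lower and 5 neither (median 0.33), with 4 higher and 5 lower under spike-in scaling. These shares are not far from those of genes with a symbol, so the counts say little about this list. Fen1, the flap endonuclease of replication and repair, rose by 1.07 and Tdp1, which removes trapped topoisomerase from DNA ends, by 0.80, whereas the glycosylase gene Neil2 was at least 2.30-fold lower (adjusted p = 0.000802, limma), being not well above background on the positive arrays. Of 21 further nucleotide excision genes 13 were higher, 2 lower and 6 neither (median 0.33), including Ercc8 (0.85), Rad23b (0.74) and Ddb1 (0.51). Under spike-in scaling 2 of these 21 were higher and 4 lower.

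The further end joining genes again had no common direction, with 3 higher, 2 lower and 2 neither of 7, and a median of -0.16. The lower ones were Dclre1c, the Artemis nuclease that opens hairpin ends in V(D)J recombination (-0.68, SE 0.08, adjusted p = 0.00449), and Aptx, which clears adenylate left by failed ligation (-0.52, SE 0.06, adjusted p = 0.00435, both limma). Dclre1c had 4 kept probes, of which the brightest is given. Under quantile normalization and cyclic loess 1 of the 7 was higher and 3 lower. The sign of the list median depended on the processing. It was -0.29 under quantile normalization, -0.20 under cyclic loess and -0.47 under spike-in scaling. With normexp it was 0.18, with the mean of a gene's probes 0.12 and with the stricter filter on dim probes 0.04. Of genes with a symbol 44.1% were called higher. The plot of each list's genes sets them beside the members, and the difference between lists was not tested.

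**Figure D5:**
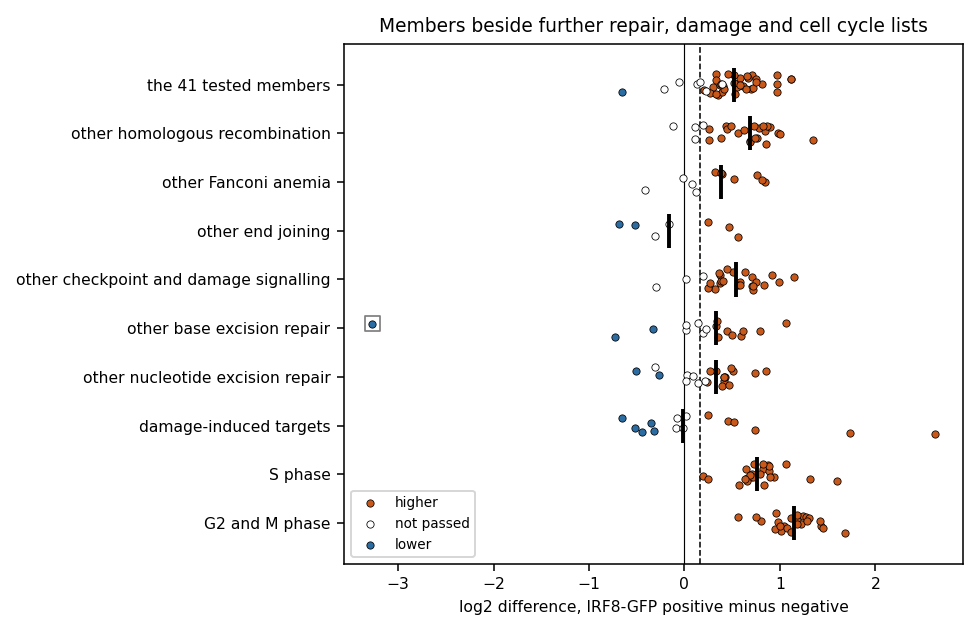
Difference in log2 signal, IRF8-GFP positive minus negative LMPP, of each tested gene by list, with black bars at list medians and a dashed line at the median of all tested (0.16). List medians run from -0.16 for further end joining genes to 1.15 for G2 and M phase genes, and a grey square surrounds Neil2, not well above background in positive LMPP, whose fitted value is no bound.

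Genes of the cell cycle were also called higher, where 44.1% of genes with a symbol were. S phase genes, such as those of the replicative helicase, origin licensing and nucleotide supply, were called higher for 24 of 24 tested (25 listed), with a median difference of 0.76 and a range of 0.19 to 1.60. Among them were Ccne1, the cyclin of S phase entry (1.60, adjusted p = 0.00144), and Rrm2 (1.32, adjusted p = 0.00144) and Rrm1 (1.07, adjusted p = 0.00171, all limma), subunits of the enzyme that makes deoxynucleotides. Genes of G2 and M phase were called higher for 24 of 24, with a median of 1.15 and a range of 0.57 to 1.69, led by the mitotic kinase genes Aurkb (1.69, adjusted p = 0.00209) and Plk1 (1.43, adjusted p = 0.00152) and by Ube2c (1.45, adjusted p = 0.00159, all limma). The G2 and M phase count was 24 of 24 under every alternative. The S phase count was 22 under spike-in scaling and centring, where 18.1% and 28.4% of genes with a symbol were called higher. It was 21 under quantile normalization, the matrix values and cyclic loess, against 29.4%, 29.3% and 26.7% of genes with a symbol. The median of the recombination genes (0.65) lay below both. Arrays hold no count of cells by phase, and the part of the cell cycle genes in the differences of the repair genes was not tested.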

How the data were processed

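Each of the 4 one-colour arrays holds Cy3-labelled RNA of sorted LMPP. Per the file headers, Agilent Feature Extraction 10.7.3.1 quantified the scans, and the deposited processed intensity of a spot is background-subtracted and not scaled between arrays. The authors' deposited matrix holds intensity values with the same sorted values in every column, which is how quantile normalized data look. Its scale is linear, and the centring step was not given in the sources used here.

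Control and outlier spots were left out, spots of a probe were averaged, and log2 intensity minus the array's 75th percentile was used. A probe was kept when at least 0.5 of its spots were well above background on both arrays of 1 or both groups (30478 of 55681 probes, 12 having been dropped as outliers). Accessions were matched to RefSeq GRCm38.p6 for names, which gave 26756 probes with 1 symbol and 28913 without. Differences were fitted with limma 3.58.1 in R 4.3.3 (lmFit and eBayes, no trend, no block) on all 4 arrays and adjusted over all tested. The fit was also run on data simulated from its own variance model with few changed genes. These arrays differ from that setting, so the run cannot show how the fit does here. A bound ("at least") sets the bright group's mean against the dim value or, if higher, the lowest signal well above background of that array. The number of arrays limits the precision.

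The members, lists, tests and alternatives were chosen with earlier results of these data known. Named are all members, Irf8 and the gate genes, the up to 3 most changed called genes of each further list with no overlap between groups, and tested divergent neighbours. A few genes that this rule takes are not reported here. The alternatives were each array left out in turn, exp number as a block, normexp (offset 50), quantile normalization, the matrix values, spike-in scaling (7 E1A control probes), cyclic loess, centring on the median of tested genes, no or a stricter filter on dim probes, an intensity trend and the mean of a gene's probes.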

Additional observations from a re-analysis of the deposited data

How the results depend on the processing

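The main counts were 34 members higher, 1 lower, a median difference of 0.52 and 13390 genes called. Leaving out each array in turn gave 21 to 32 members higher, 1 to 2 lower, a median of 0.45 to 0.53 and 7612 to 12774 genes called (7612 without negative exp 1, 7723 without negative exp 2). The median was 0.40 with normexp, 0.26 with quantile normalization and with the matrix values, 0.21 with spike-in scaling, 0.25 with cyclic loess, 0.36 with centring and 0.46 with the mean of a gene's probes. Members higher were 18 with spike-in scaling and 22 with cyclic loess. Members lower were 2 with quantile normalization, the matrix values, cyclic loess and an intensity trend, and 3 with spike-in scaling and centring. Differences changed sign under quantile normalization for Fance (-0.11), Msh6 (-0.086) and Ung (-0.11), and under the matrix values for Fance (-0.11), Msh6 (-0.089) and Ung (-0.11). They did so under spike-in scaling for Fance (-0.10), Fancg (-0.078), Fancl (-0.0087), Lig4 (-0.17), Atm (-0.14) and Chek2 (-0.044), and under cyclic loess for Fance (-0.15), Msh6 (-0.068), Ung (-0.036) and Xpc (-0.023). Lig4 (-0.027) changed sign under centring and Rad51d (-0.17) with the mean of its probes. The causes were not tested, beyond what each scaling does to all genes: the median of all tested was 0.04 under quantile normalization and -0.14 under spike-in scaling, against 0.16. With exp number as a replicate block 35 members were higher and 1 lower: Fancg and Chek1 passed and Fance did not. Deviations of arrays with the same exp number had a correlation of 0.0971, so the numbers are not shown to pair the arrays. Of all tested, 13946 genes were called with the block. Dim signal limits Brca1 and Chek1, whose SEs were the largest among the members.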

Other observations

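Genes induced by DNA damage through the tumour suppressor pathway of the checkpoint, a list chosen with results of these data known, were called higher in 6 cases of 15 tested, lower in 5 and neither in 4 in IRF8-GFP positive LMPP, with a median difference of -0.01. The share called higher is near that of all tested (38.5%) and of genes with a symbol (44.1%). The largest were Pmaip1, a BH3-only gene of apoptosis (2.63, 6.17-fold, adjusted p = 0.000802), the cyclin-dependent kinase inhibitor gene Cdkn1a (1.73, 3.33-fold, adjusted p = 0.00115) and Phlda3 (0.74, adjusted p = 0.00403, all limma). Other genes of the list, named here after their values were seen, went the other way, with Bbc3, another BH3-only gene, at -0.65, Btg2 at -0.52 and Gadd45a at -0.45, while Mdm2 was at 0.01. Under spike-in scaling 4 of the 15 were higher and 9 lower.

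Many repair genes start next to a gene on the other strand. Such a neighbour within 1000 bases was found 16 times, and 11 of these neighbours were tested, of which 5 were called higher, 1 lower and 5 neither. Among the 9 tested neighbours of members called higher, 4 were higher, 1 lower and 4 neither. Both shares called higher are close to the 44.1% of genes with a symbol, so these counts say nothing particular about the neighbours. Osgep, next to Apex1, differed by 0.61 (adjusted p = 0.00304), Aimp2, next to Pms2, by 0.60 (adjusted p = 0.00292), Desi1, next to Xrcc6, by 0.41 (adjusted p = 0.00595) and Zfyve21, next to Xrcc3, by 0.23 (adjusted p = 0.0343, all limma). Zswim9, next to Lig1, went the other way at -0.51 (SE 0.12, adjusted p = 0.0266, limma), although Lig1 was 0.66 higher. Tmem167, next to Xrcc4, was 0.77 higher (SE 0.07, adjusted p = 0.00259, limma), although Xrcc4 was at -0.22. Neighbours that did not pass were Nbr1 of Brca1 (0.02), Mospd2 of Fancb (-0.09), Abhd13 of Lig4 (-0.07), Dctn5 of Palb2 (0.14) and Zfyve26 of Rad51b (0.14).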
